A study of Mus musculus with 24 samples.

Results

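Innate lymphoid cells (ILCs) and T cells arise from shared lymphoid progenitors, and the 7 genes described here, *Zbtb16*, *Rora*, *Tbx21*, *Eomes*, *Nfil3*, *Il18r1* and *Icos*, encode transcription factors and receptors known for their roles in ILCs and natural killer (NK) cells. They were taken as the rows whose gene symbol equals one of these names in both deposited expression tables, and all 7 were found among the 55487 genes of each table. The cells were Cas9-LPs, lymphoid progenitor (LP) lines derived from fetal liver progenitors of *Ebf1*-deficient mice that also carry Cas9 at *Rosa26*, so every group, controls included, lacked the B-lineage factor EBF1 by genotype and carried Cas9. LPs were kept on OP9 stroma with SCF, Flt3L and IL-7, and Phase 1 cells are the same LPs moved to OP9-DLL4, stroma that presents the Notch ligand DLL4, for 2 days. An sgRNA retrovirus marked with human NGFR was introduced, and marked cells were sorted 5 days after transduction and read with QuantSeq, which counts the 3′ ends of mRNA. Each library is thus a population of edited cells, not a clone. sgControl targets luciferase, a gene that mouse cells lack, and sgCbfb, sgCTCF and sgMed12 target *Cbfb*, *Ctcf* and *Med12*.

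Experiment 1 compared sgControl with sgCbfb in LPs and in Phase 1 cells, and experiment 2 compared sgControl, sgCbfb, sgCTCF and sgMed12 in LPs. Each of the 8 groups held 3 libraries, 24 in all, which the study calls biological replicates. *Cbfb* encodes the partner that RUNX1, RUNX2 and RUNX3 all need for stable DNA binding, *Ctcf* the DNA-binding protein that anchors chromatin loops, and *Med12* a subunit of the Mediator kinase module. The comparisons ask how the ILC regulators depend on RUNX, CTCF and Mediator before Notch stimulation, and on RUNX after it.

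ILC development starts from progenitors in which *Nfil3* acts early, followed by *Zbtb16*, which encodes PLZF and marks the committed ILC precursor. *Tbx21* (T-bet) and *Eomes* encode T-box factors of NK cells and group 1 ILCs, and *Rora* encodes the nuclear receptor RORα needed by group 2 ILCs. *Il18r1* encodes the ligand-binding chain of the IL-18 receptor and *Icos* a costimulatory receptor of the CD28 family, and both are found on ILC precursors and mature ILC subsets as well as on T cells.

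Values are counts per 1000000 reads on genes (CPM), and each value was a whole number of reads. Depth was 1363263 to 1743319 reads in experiment 1 and 3354483 to 4326782 in experiment 2, so that 3 reads, the level taken as a floor, were worth 1.72 to 2.20 CPM and 0.693 to 0.894 CPM. The targeted mRNAs checked the labels in part. *Cbfb* averaged 86.5 CPM in sgControl and 40.2 CPM in sgCbfb LPs of experiment 1 (limma adjusted P = 0.00548) and 114.3 against 48.4 CPM in experiment 2 (adjusted P = 4.34e-06), but in Phase 1 cells its 66.5 and 53.9 CPM did not differ by the test (adjusted P = 0.591). *Ctcf* was lower with sgCTCF (391 to 306 CPM, adjusted P = 0.0210), and *Med12*, at 5.14 CPM in sgControl and 7.01 CPM in sgMed12 libraries (adjusted P = 0.663), did not check its label. *Ebf1* mRNA was read in every library at 143 to 403 CPM, which does not test the deletion unless the 3′ end is part of it. Mitochondrial genes took 8.44% to 13.7% of reads in the sgMed12 libraries and 6.76% to 8.15% in the other libraries of experiment 2. Lymphoid progenitor markers (*Ptprc*, *Flt3*, *Il7r*, *Kit*, *Cd34*) summed to 1014 to 1851 CPM in all libraries, and 8 genes of Notch-stimulated early T cells to 28.5 to 60.2 CPM in sgControl LPs of both experiments against 847 to 1019 CPM in sgControl Phase 1 cells.

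The 7 genes lie on chromosomes 1, 9, 11 and 13 of the GRCm38 mouse genome (mm10, GENCODE M21). *Il18r1* (chr1:40465552-40500854, + strand) and *Icos* (chr1:60977927-61000320, + strand) share chromosome 1, each within a cluster of related receptor genes. *Zbtb16* (chr9:48654297-48836222, − strand), *Rora* (chr9:68653786-69388246, + strand) and *Eomes* (chr9:118478212-118486132, + strand) share chromosome 9 but lie far apart. *Tbx21* is at chr11:97098071-97115331 and *Nfil3* at chr13:52967209-52981073, both on the − strand. The antisense genes *Gm15511* and *Gm33460* share 82 exon bases with *Rora* and 118 with *Eomes*, but both had 0 reads in all 24 libraries.

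RefSeq promoter sequences (build GRCm38.p6, 250 bases before to 50 after a transcription start) matched 5 of the 7 genes with 7 promoters, 3 of them for *Il18r1*. The letters TGTGGT, a core that RUNX factors bind, and TGGGAA, a core bound by RBPJ, the DNA-binding partner of the Notch intracellular domain, were searched on both strands (ACCACA and TTCCCA on the other strand). RUNX letters stood in 1 of the 7 promoters, the second *Il18r1* promoter of the table, and in 16.8% of the 32851 mouse promoters of the same length, and RBPJ letters stood in 5 of 7 (those of *Rora*, *Tbx21* and *Il18r1*) and in 25.6% of all. These 5 belong to 3 of the 5 genes, and the first and second *Il18r1* windows overlap and hold the same RBPJ match, so it is counted in both. A match is only a description of letters in the window and is not a binding site. Of the 3 *Il18r1* promoters, the 1 with both matches is shown as an example, beside the *Nfil3* promoter with neither. Whether these letters bear on the calls described below was not tested. The *Il18r1* window is chr1:40465371-40465670 on the + strand and the *Nfil3* window chr13:52980990-52981289 on the − strand, both written 5′ to 3′ with RUNX and RBPJ letters in capitals.
Il18r1 promoter: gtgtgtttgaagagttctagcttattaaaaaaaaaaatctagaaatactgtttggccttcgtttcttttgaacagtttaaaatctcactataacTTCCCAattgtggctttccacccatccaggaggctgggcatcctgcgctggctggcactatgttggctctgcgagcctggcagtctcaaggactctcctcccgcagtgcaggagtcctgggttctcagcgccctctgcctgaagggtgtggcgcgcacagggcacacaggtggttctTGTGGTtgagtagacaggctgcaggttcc
Nfil3 promoter: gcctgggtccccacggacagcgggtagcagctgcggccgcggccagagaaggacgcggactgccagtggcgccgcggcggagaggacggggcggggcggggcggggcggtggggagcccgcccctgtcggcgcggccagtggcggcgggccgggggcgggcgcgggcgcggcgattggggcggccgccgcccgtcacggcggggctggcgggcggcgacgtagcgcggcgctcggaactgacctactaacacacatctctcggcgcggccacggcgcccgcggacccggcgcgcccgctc
In the *Il18r1* window TGTGGT begins 22 bases after the start, and TTCCCA, the RBPJ letters of the opposite strand, begins 156 bases before it. The *Il18r1* window is 51.3% G or C and the *Nfil3* window 81.7%.

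Across the comparisons, *Il18r1* was the member called most often, *Zbtb16* was called with Notch stimulation and with sgCbfb in Phase 1 cells, and *Nfil3* was called with sgMed12. Without a call, *Zbtb16* with sgCbfb in LPs of both experiments was also lower at a limma adjusted P under 0.05. The same held for *Nfil3* with sgCbfb in experiment 2. A gene was called when its limma adjusted P, over all genes tested, was under 0.05, its group means differed by more than 1 on the log2 scale and either mean was over 10 CPM. Testing only genes that reached 1 CPM in 3 or more libraries of an experiment kept 5 of the 7 members in experiment 1, not *Tbx21* and *Eomes*, and 6 in experiment 2, not *Tbx21*. In experiment 2, *Icos*, *Eomes* and *Rora* reached this filter only through the sgCTCF libraries, where they were highest, so their tests against sgCTCF are conditioned on that group and their P values are given as a description. In LPs of experiment 1, sgCbfb gave 1 called member (*Il18r1*, lower), where 1.69% of the 13239 genes tested were called. In Phase 1 cells, sgCbfb gave 2 (*Zbtb16* and *Il18r1*, lower) against 3.52% of all genes. Phase 1 against LP gave 1 with sgControl (*Zbtb16*, higher; 3.39% of all genes) and 0 with sgCbfb (1.19% of all genes), where limma gave 0 members an unadjusted P under 0.05 and edgeR on the reads called 0. The interaction, which asks whether the sgCbfb difference itself differed between the stages, called 0 members and 1.19% of all genes, with 1 member, *Zbtb16*, at an unadjusted P under 0.05 by limma and 0 called by edgeR.

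In LPs of experiment 2, with 13177 genes tested, sgCbfb gave 1 called member (*Il18r1*, lower; 4.33% of all genes). sgCTCF gave 0 (2.43% of all genes), although 3 members, *Il18r1*, *Icos* and *Eomes*, passed the adjusted P alone and missed the fold or the mean level, *Icos* and *Eomes* after entering the test through sgCTCF, and edgeR also called 0. sgMed12 gave 1 (*Nfil3*, lower; 1.03% of all genes). Between the targeting sgRNAs, sgCTCF against sgCbfb gave 1 (*Il18r1*, higher with sgCTCF; 6.87% of all genes), sgMed12 against sgCTCF gave 2 (*Nfil3* and *Il18r1*, lower with sgMed12; 4.01%) and sgMed12 against sgCbfb gave 1 (*Il18r1*, higher with sgMed12; 4.48%). For the 5 tested members in experiment 1, the median log2 difference was −0.45 for sgCbfb in LPs and −0.86 in Phase 1 cells. The median of all genes tested was 0 and 0.06. Both member medians are the value of *Rora*, which was near the floor (limma adjusted P = 0.872 and 0.487). They therefore do not describe a shift of the members as a set. Comparisons within an experiment share libraries, so they are given side by side and not as separate evidence. In these bulk libraries, fewer cells that express a gene and less RNA per cell cannot be told apart.

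**Figure D1:**
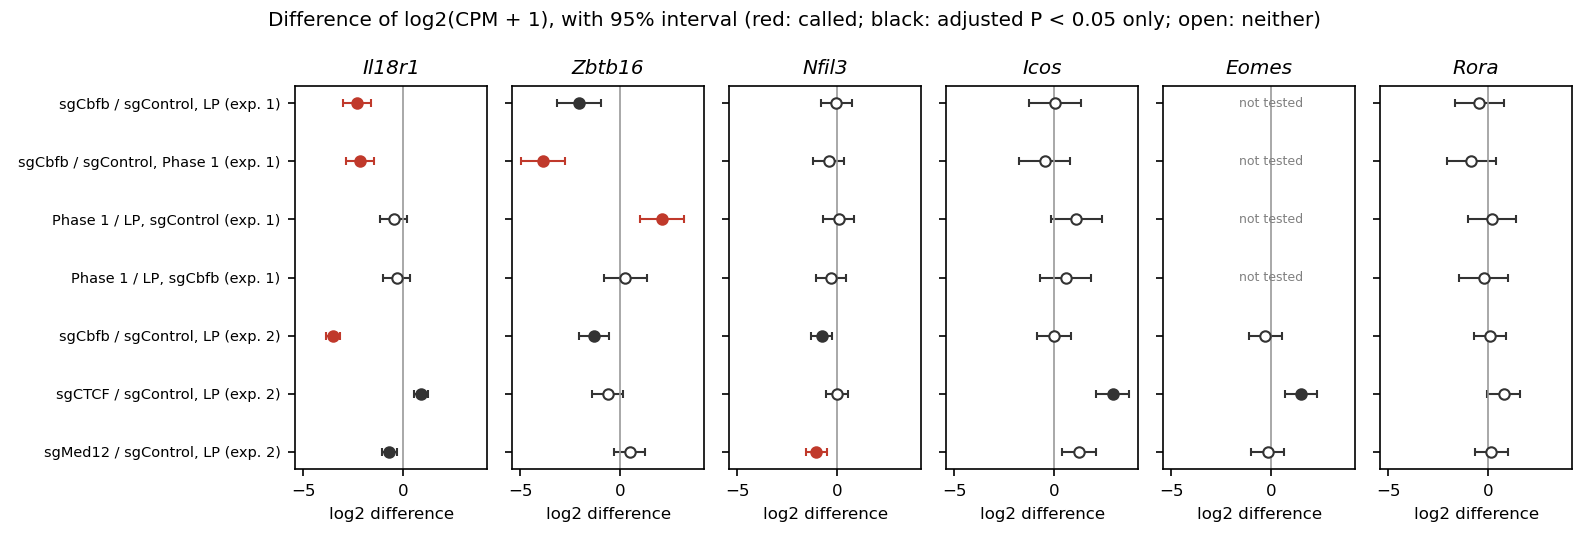
The log2 difference of each tested member (x axis, limma on log2(CPM + 1), with its 95% interval) is drawn for the comparisons with sgControl and between the stages, red where called, black where only the adjusted P was under 0.05 and open otherwise. *Il18r1* lies left of 0 in each sgCbfb against sgControl comparison, at −2.33, −2.17 and −3.53.

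*Il18r1*, the IL-18-binding chain of the receptor, was lower with sgCbfb in all 3 comparisons with sgControl. In LPs of experiment 1 it was read at 96.8, 83.6 and 79.0 CPM with sgControl and at 28.9, 16.1 and 9.28 CPM with sgCbfb. The groups did not overlap, and the sgCbfb libraries spread over a wider ratio than the controls. The means were 86.5 ± 9.24 and 18.1 ± 9.98 CPM (SD, n = 3), 4.78-fold lower with sgCbfb (limma log2 difference −2.33, SE 0.33, adjusted P = 0.000126). In Phase 1 cells the values were 84.7, 55.5 and 48.4 CPM with sgControl and 16.9, 13.8 and 8.84 CPM with sgCbfb. Again every control library was above every sgCbfb library. The means of 62.9 ± 19.2 and 13.2 ± 4.05 CPM (SD, n = 3) differed 4.77-fold (log2 difference −2.17, SE 0.33, adjusted P = 0.000153). The sgCbfb difference was not shown to change with Notch stimulation, since the interaction was 0.15 on the log2 scale with a 95% interval of −0.82 to 1.13 (adjusted P = 0.954). Phase 1 and LP controls overlapped and their difference of −0.49 (95% interval −1.18 to 0.20) did not pass the test (adjusted P = 0.447).

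In experiment 2, *Il18r1* fell in 4 ranges that did not overlap in LPs, highest with sgCTCF and lowest with sgCbfb. It was read at 57.8, 92.1 and 70.6 CPM with sgControl and at 5.37, 5.90 and 4.79 CPM with sgCbfb. The sgCbfb libraries lay close together and far under the controls, with means of 5.35 ± 0.557 and 73.5 ± 17.4 CPM (SD, n = 3), 13.7-fold apart (log2 difference −3.53, SE 0.18, adjusted P = 1.08e-13). With sgCTCF the values were 117.0, 148.1 and 140.1 CPM, and all 3 were above the highest control. The mean of 135.1 ± 16.2 CPM (SD, n = 3) was 1.84-fold that of sgControl (log2 difference 0.89, SE 0.18, adjusted P = 0.00133), under the fold threshold for a call. Without sgControl replicate 2, the highest control, it was called at a difference of 1.06 (adjusted P = 0.000669).

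With sgMed12, *Il18r1* was read at 43.8, 35.7 and 53.9 CPM, all under the lowest control. The mean of 44.5 ± 9.11 CPM (SD, n = 3) was 1.65-fold lower than with sgControl (log2 difference −0.71, adjusted P = 0.0191), under the fold threshold. The order was thus sgCTCF, sgControl, sgMed12 and sgCbfb, and each neighbouring pair in it differed at an adjusted P under 0.05. Between the targeting sgRNAs the sgCTCF level was 25.2-fold that of sgCbfb (log2 difference 4.42, adjusted P = 9.44e-16), the sgMed12 level was 3.04-fold lower than that of sgCTCF (−1.59, adjusted P = 5.96e-07) and 8.32-fold that of sgCbfb (2.83, adjusted P = 7.31e-12). Each of the 6 *Il18r1* calls held in all 21 alternative analyses. The sgMed12 against sgControl difference, which was not called, had adjusted P values from 0.0166 to 0.146 over them, so it did not pass in every one.

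**Figure D2:**
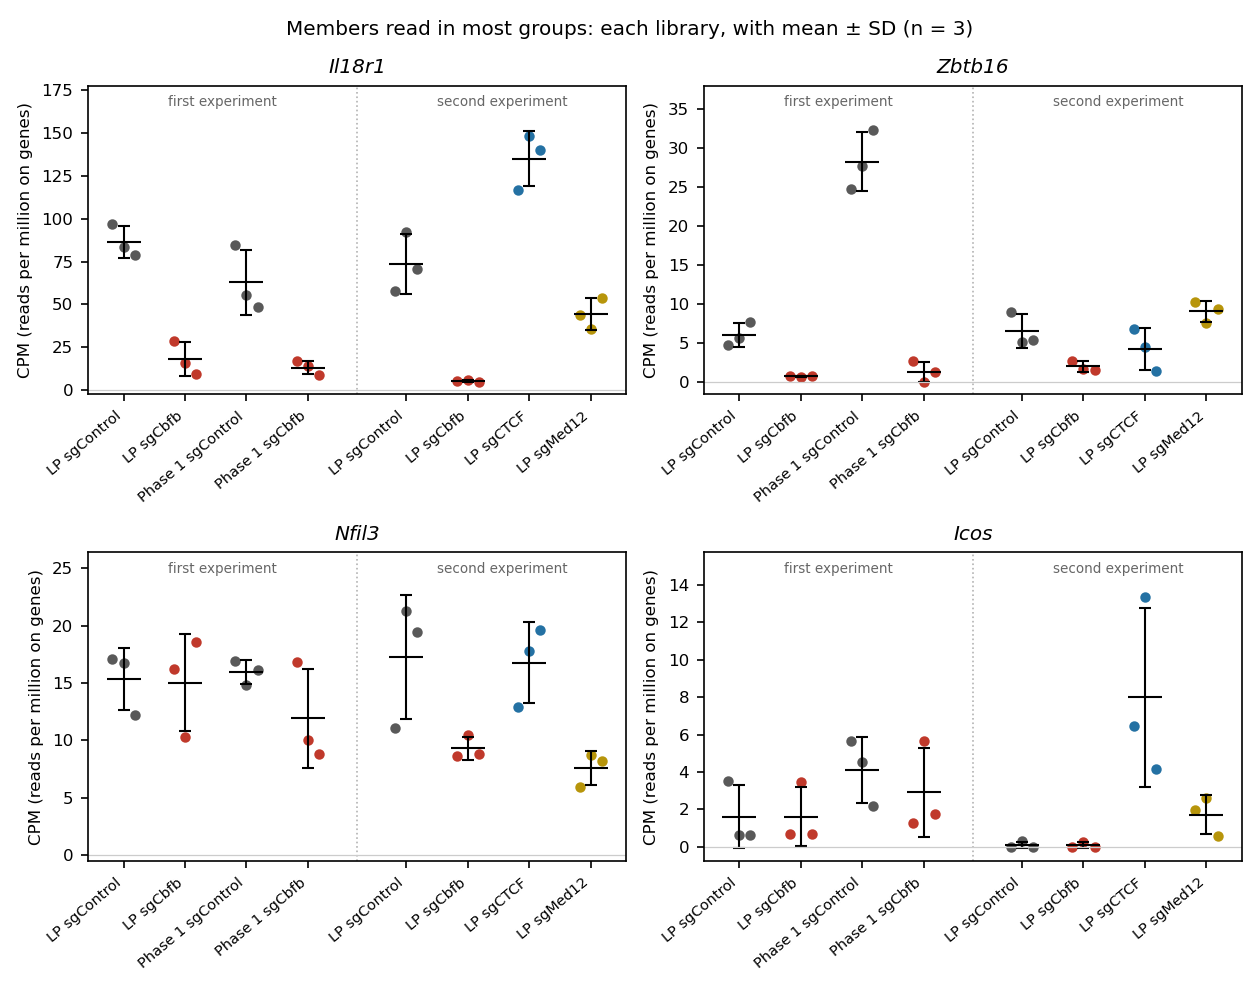
CPM (y axis) of *Il18r1*, *Zbtb16*, *Nfil3* and *Icos* in each library (points) of the 8 groups, with the group mean and SD (n = 3). *Il18r1* with sgCbfb sits at 4.79 to 28.9 CPM, under every sgControl library at 48.4 to 96.8 CPM, and *Zbtb16* stands highest in sgControl Phase 1 cells at 24.7 to 32.3 CPM.

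*Il18r1* lies among receptor genes of the IL-1 family on chromosome 1. *Il1rl1*, which encodes the IL-33 receptor, ends 136 bases before it, and *Il18rap*, which encodes the second chain of the IL-18 receptor, starts 14507 bases after it. *Il1rl1* group means did not exceed 2.08 CPM. *Il18rap* averaged 88.5 ± 13.7 CPM in sgControl and 56.1 ± 11.0 CPM in sgCbfb LPs (SD, n = 3, adjusted P = 0.122) and 75.3 ± 9.0 against 50.2 ± 11.9 CPM in Phase 1 cells (adjusted P = 0.113), neither past the threshold. In LPs of experiment 2 it fell from 92.8 ± 13.5 to 42.0 ± 9.44 CPM with sgCbfb (2.21-fold, log2 difference −1.14, adjusted P = 2.77e-06). With sgCTCF it was at 79.9 ± 9.52 CPM (adjusted P = 0.439) and with sgMed12 at 101 ± 9.31 CPM (adjusted P = 0.642), so the differences in *Il18r1* with these sgRNAs were not seen in *Il18rap* at the threshold, and whether the responses of the pair differ was not tested.

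Of the 10 genes of the IL-18 pathway list, 10 were tested in experiment 1 and 9 in experiment 2. *Il18rap* in LPs of experiment 2 with sgCbfb, where 4.33% of all genes were called, was the only call against sgControl or between stages. *Il18*, the ligand itself, had group means of 1.80 to 7.71 CPM, and *Myd88* and *Irak4*, which relay the signal inside the cell, 31.9 to 54.7 and 21.1 to 33.5 CPM. The gene whose group means were most like those of *Il18r1* was *Il2rb*, the β chain shared by the IL-2 and IL-15 receptors (Pearson r = 0.993 over 8 group means, each experiment centred on its own mean, of 8622 genes compared), followed by *Ptprf* and *Slc39a6* (r = 0.991 for both). These r describe 8 points that share libraries and carry no test. *Il2rb* averaged 39.1 ± 7.71 against 3.95 ± 3.22 CPM in LPs of experiment 1 (9.89-fold lower with sgCbfb, adjusted P = 0.00287), 16.4 ± 4.5 against 3.10 ± 2.74 CPM in Phase 1 cells (5.28-fold lower, adjusted P = 0.0197) and 42.7 ± 12.9 against 0.367 ± 0.406 CPM in experiment 2 (adjusted P = 1.08e-13; SD, n = 3), where 476 reads against 4 gave a ratio of 117 (95% interval 45.2 to 430 for counting error). It also stood at 77.2 ± 3.22 CPM with sgCTCF (1.81-fold, adjusted P = 0.0221, not called) and 20.8 ± 5.32 CPM with sgMed12 (2.06-fold lower, adjusted P = 0.02, called).

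*Icos*, the costimulatory receptor, was near the floor in sgControl and sgCbfb LPs of experiment 2 and was read clearly with sgCTCF. It had 0, 1 and 0 reads with sgControl, 0, 1 and 0 with sgCbfb, 24, 48 and 18 with sgCTCF and 7, 9 and 2 with sgMed12. Every sgCTCF library was above every library of the other groups, and every sgMed12 library above every sgControl library. The sgCTCF level was 7.99 ± 4.79 CPM (SD, n = 3), and 90 reads against 1 gave a ratio of 87.2 to sgControl with a 95% interval of 15.3 to 3483 for counting error. The limma log2 difference, which is held down by the pseudocount at such low levels, was 2.91 (SE 0.41, adjusted P = 2.31e-05), and edgeR on the reads gave an adjusted P of 4.96e-05, both for a gene that only the sgCTCF libraries brought past the filter. It was not called because the mean was under 10 CPM, and it was called with the mean threshold at 5 CPM.

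With sgMed12, *Icos* averaged 1.72 ± 1.05 CPM (SD, n = 3). Its 18 reads against 1 gave a ratio of 19.3 to sgControl (95% interval 3.05 to 806), with an adjusted P of 0.0625 by limma and 0.0367 by edgeR, so the 2 tools fell on opposite sides of the threshold. The sgMed12 level was lower than that of sgCTCF (log2 difference −1.68, limma adjusted P = 0.00480), a P value conditioned on sgCTCF, the group that brought *Icos* past the filter. In experiment 1 *Icos* was read at 0.619 to 3.54 CPM in sgControl LPs, 0.705 to 3.44 CPM in sgCbfb LPs, 2.20 to 5.65 CPM in sgControl Phase 1 cells and 1.30 to 5.66 CPM in sgCbfb Phase 1 cells. All 4 groups overlapped at 1 to 9 reads a library. Adjusted P values were 0.999 for sgCbfb in LPs, 0.746 in Phase 1 cells and 0.345 for Phase 1 against LP with sgControl, whose 95% interval of −0.19 to 2.38 on the log2 scale leaves room for a large difference at this depth.

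*Icos* is the last of a cluster of CD28 family genes on chromosome 1, with *Cd28* and *Ctla4* before it. *Cd28*, which encodes the main costimulatory receptor of T cells, ends 113640 bases before *Ctla4*, which encodes its inhibitory relative, and *Ctla4* ends 62094 bases before *Icos*. *Cd28* rose with sgCbfb in LPs of experiment 1 (6.75 ± 2.28 to 20.6 ± 2.50 CPM, 3.05-fold, adjusted P = 0.00800) and in Phase 1 cells (14.9 ± 2.18 to 56.1 ± 10.7 CPM, 3.76-fold, adjusted P = 0.000770; SD, n = 3). *Ctla4* rose with Notch stimulation to 17.9 ± 2.18 CPM (SD, n = 3, adjusted P = 0.000215), and its 77 reads in sgControl Phase 1 cells against 3 in sgControl LPs gave a ratio of 28.8 (95% interval 9.51 to 143 for counting error). With sgCTCF, *Ctla4* averaged 4.95 ± 2.07 against 1.60 ± 1.31 CPM (adjusted P = 0.0438) and stayed under the level for a call. *Icos* itself passed the test in none of the experiment 1 comparisons in which *Cd28* or *Ctla4* was called.

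**Figure D3:**
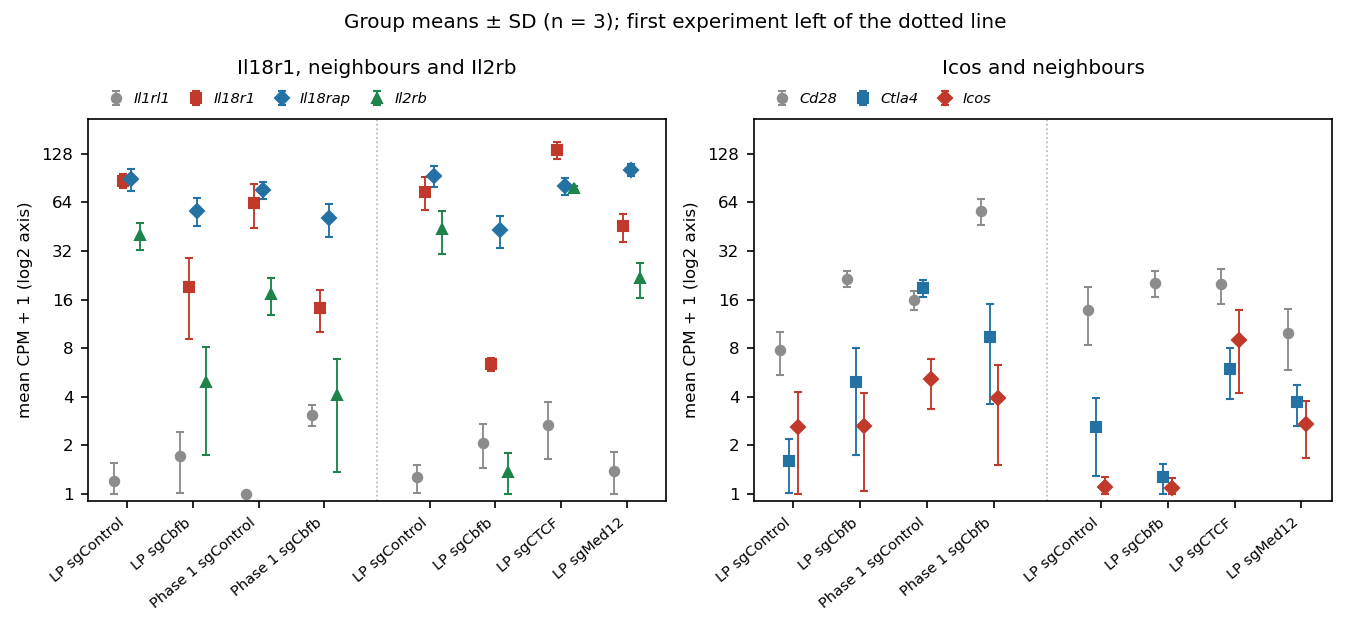
Group means with SD (n = 3, CPM + 1 on a log2 axis) of the *Il18r1* neighbours and *Il2rb*, and of the *Icos* neighbours, in the 8 groups. *Il2rb* and *Il18r1* are lowest with sgCbfb, whereas *Cd28* with sgCbfb stands at 20.6, 56.1 and 19.4 CPM, above the matching sgControl means.

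Of the 8 genes of the *Icos* and CD28 family list, 7 were tested in each experiment and every call against sgControl or between stages with sgControl was a rise. sgCbfb gave *Cd28* in LPs of experiment 1, *Cd28* and *Cd86* in Phase 1 cells, and *Cd86* and *Icosl* in LPs of experiment 2. Of all genes tested, 1.69%, 3.52% and 4.33% were called in these comparisons. The share was 3.39% between the stages with sgControl, 2.43% with sgCTCF and 1.03% with sgMed12. *Icosl*, the ICOS ligand, averaged 3.10 ± 1.66 CPM in sgControl LPs and 12.2 ± 3.97 CPM in sgControl Phase 1 cells (3.92-fold, adjusted P = 0.0219), where *Cd28* and *Ctla4* were also called. sgCTCF gave *Cd86*, a ligand of CD28 and CTLA4, which rose from 4.32 ± 0.879 to 14.2 ± 1.19 CPM (3.28-fold, adjusted P = 0.000798). sgMed12 gave 0 by limma and by edgeR, with 2 genes at an unadjusted limma P under 0.05. The list's median log2 difference for sgCbfb was 1.28, 0.75 and 0.62 in the 3 comparisons, against 0, 0.06 and −0.01 over all genes tested. *Cd80*, which is among the 7, reached the filter in experiment 1 only through sgCbfb Phase 1 cells. *Cd86* and *Icosl* are also expressed by myeloid cells, and the summed level of 6 monocyte and macrophage markers was higher with sgCbfb. This sum was 72.6 to 99.7 CPM in sgControl and 334 to 358 CPM in sgCbfb LPs of experiment 1. In Phase 1 cells it was 50.8 to 63.1 against 331 to 355 CPM. In experiment 2 it was 68.4 to 86.5 against 516 to 583 CPM. *Csf1r* was at 0 in sgControl LPs of both experiments and averaged 0.191 and 1.58 CPM in the sgCbfb LPs. *Mrc1* made up most of the sum with sgCbfb. It was called in each of the 3 comparisons (4.86 to 221 CPM, 1.62 to 210 CPM and 6.23 to 472 CPM). *Adgre1* was called in Phase 1 cells, and the other 4 markers were not called. In Phase 1 cells *Cd68* (8.33 to 3.52 CPM), *Itgam* (26.1 to 22.15 CPM) and *Lyz2* (0.45 to 0.216 CPM) were lower with sgCbfb. *Csf1r* was higher there (2.89 to 4.57 CPM), and *Lyz2* was also lower in LPs of experiment 1. The part of myeloid cells in the sgCbfb differences was not tested.

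*Zbtb16*, which encodes PLZF, rose with Notch stimulation in sgControl cells and was near the floor in sgCbfb cells of both stages. In sgControl cells it was read at 4.72, 5.57 and 7.71 CPM in LPs and at 24.7, 27.7 and 32.3 CPM in Phase 1 cells. The stages did not overlap, and the lowest Phase 1 library had 35 reads against 12 in the highest LP library. The means of 6.0 ± 1.54 and 28.2 ± 3.81 CPM (SD, n = 3) differed 4.71-fold (log2 difference 2.08, SE 0.53, adjusted P = 0.0176). This call was lost in 5 of 21 alternatives, where the adjusted P lay between 0.0532 and 0.216, among them leaving out LP sgControl replicate 1 (adjusted P = 0.0762), LP sgControl replicate 2 (0.0655) or Phase 1 sgControl replicate 3 (0.0532). With sgCbfb, Phase 1 cells had 4, 0 and 2 reads and LPs 1 read in each library, levels that overlap (adjusted P = 0.919).

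Against sgControl, *Zbtb16* was 22.5-fold lower with sgCbfb in Phase 1 cells (log2 difference −3.87, SE 0.53, adjusted P = 4.78e-05), a call that held in all 21 alternatives. For LPs of experiment 1, 3 reads with sgCbfb against 29 with sgControl gave a ratio of 9.06 (95% interval 2.81 to 46.5 for counting error). There the log2 difference of −2.05 passed the adjusted P (0.0352) but not the level of 10 CPM. Although the sgCbfb difference was larger in Phase 1 cells, the interaction of −1.82 (95% interval −3.38 to −0.27) did not pass over all genes (adjusted P = 0.364). It passed in 1 of 20 alternatives, with a pseudocount of 5 (−1.48, adjusted P = 0.0450).

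*Zbtb16* in LPs of experiment 2 was read at 8.97, 5.02 and 5.36 CPM with sgControl and at 2.68, 1.61 and 1.51 CPM with sgCbfb. The groups did not overlap, and the fall was 3.33-fold (6.45 ± 2.19 to 1.93 ± 0.650 CPM, SD, n = 3; log2 difference −1.33, adjusted P = 0.0158), with both means under 10 CPM. With sgCTCF it was at 6.71, 4.46 and 1.39 CPM, a range that overlaps both sgControl and sgCbfb (adjusted P = 0.321 and 0.203). With sgMed12 it was at 10.2, 7.56 and 9.37 CPM, which overlaps sgControl (adjusted P = 0.487) and lies above every sgCTCF library (2.16-fold, adjusted P = 0.0362) and every sgCbfb library (4.67-fold, adjusted P = 0.00104). The order was therefore sgMed12, sgControl, sgCTCF and sgCbfb, and no neighbouring pair in it passed the test.

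*Nfil3*, which encodes a basic leucine zipper factor needed early in ILC and NK cell development, had no difference past the test in experiment 1. Its values were 17.1, 16.7 and 12.2 CPM in sgControl LPs, 16.2, 10.3 and 18.6 CPM in sgCbfb LPs, 16.9, 14.8 and 16.1 CPM in sgControl Phase 1 cells and 16.9, 10.1 and 8.84 CPM in sgCbfb Phase 1 cells. The groups overlapped, and the 95% interval of the log2 difference was −0.81 to 0.71 for sgCbfb in LPs (adjusted P = 0.987), −1.20 to 0.32 in Phase 1 cells (adjusted P = 0.591) and −0.70 to 0.83 for Phase 1 against LP with sgControl (adjusted P = 0.95). In experiment 2 it was read at 11.1, 21.3 and 19.5 CPM with sgControl and at 5.93, 8.72 and 8.23 CPM with sgMed12. Every sgMed12 library was under every control, although the lowest control was not far above. The means of 17.3 ± 5.44 and 7.63 ± 1.49 CPM (SD, n = 3) differed 2.26-fold (log2 difference −1.05, SE 0.26, adjusted P = 0.0187). This call was lost in 6 of 21 alternatives, among them leaving out sgControl replicate 2 (adjusted P = 0.101), sgControl replicate 3 (0.0795), sgMed12 replicate 1 (0.0875) or sgMed12 replicate 3 (0.0589), and the sgMed12 libraries were those with the high mitochondrial share, whose part was not tested beyond leaving the mitochondrial genes out, which kept the call.

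With sgCTCF, *Nfil3* was at 12.9, 17.8 and 19.6 CPM, within the range of sgControl (95% interval −0.55 to 0.53, adjusted P = 0.988). The sgMed12 level was 2.20-fold lower than this (−1.04, adjusted P = 0.00627), a call lost in 1 of 21 alternatives, without sgMed12 replicate 1, where the difference was −0.89 (adjusted P = 0.0327) and missed the fold threshold. With sgCbfb it was at 8.65, 10.5 and 8.82 CPM, also under every control. The mean of 9.31 ± 1.0 CPM (SD, n = 3) was 1.86-fold lower than that of sgControl (−0.78, adjusted P = 0.04998, just under the threshold), which is under the fold for a call. Without sgControl replicate 1 it was called (−1.06, adjusted P = 0.0116). The sgCTCF level was 1.80-fold that of sgCbfb (0.77, adjusted P = 0.0344), which was called only without sgCTCF replicate 1 (0.94, adjusted P = 0.0260). The levels with sgMed12 and sgCbfb did not differ beyond their spread (95% interval −0.81 to 0.27, adjusted P = 0.541). The genes most like *Nfil3* over the 8 group means were *Ganab* (r = 0.967), *Dvl2* (r = 0.964) and *Vti1b* (r = 0.963), again a description of 8 points.

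*Eomes*, *Rora* and *Tbx21*, the factors of NK cells and of group 1 and group 2 ILCs, stayed at or near the floor in most groups. *Eomes* was the exception in sgCTCF LPs, with 5, 8 and 19 reads against 0, 3 and 0 with sgControl, 0 in every sgCbfb library and 0, 0 and 1 with sgMed12. Each sgCTCF library lay above every library of the other groups. The 32 reads against 3 gave a ratio of 10.3 to sgControl (95% interval 3.23 to 52.8 for counting error), the level against sgCbfb was at least 10.1-fold higher with 3 reads over the group as the floor, and the ratio to sgMed12 was 28.9 (95% interval 4.82 to 1175). The log2 difference to sgControl was 1.48 (SE 0.40, adjusted P = 0.0154 by limma and 0.0531 by edgeR), so the tools fell on opposite sides of the threshold for a gene that only the sgCTCF libraries brought past the filter. The mean with sgCTCF was 2.65 ± 1.57 CPM (SD, n = 3), under the level for a call. In experiment 1, 1 *Eomes* read was found in the 12 libraries, in an LP sgControl library.

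*Rora* had 0 to 5 reads in every library but 1, and its highest count of 8 was in an sgCTCF library. The sgCTCF libraries held 4, 5 and 8 reads (1.44 ± 0.390 CPM, SD, n = 3) and the sgControl libraries 3, 1 and 1, groups that do not overlap and that did not differ by the test (adjusted P = 0.254). With sgCbfb it had 3, 3 and 0 reads and with sgMed12 3, 0 and 4. In experiment 1 the *Rora* reads were 0, 5 and 2 in sgControl LPs, 0, 2 and 1 in sgCbfb LPs, 2, 2 and 2 in sgControl Phase 1 cells and 2, 0 and 0 in sgCbfb Phase 1 cells. A difference in *Rora* was not detectable at this depth. *Tbx21* had 3 reads in 1 sgControl Phase 1 library, 1 read in 1 sgCTCF library and 0 in the other 22, so no level can be given in LPs or Phase 1 cells beyond the floor.

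**Figure D4:**
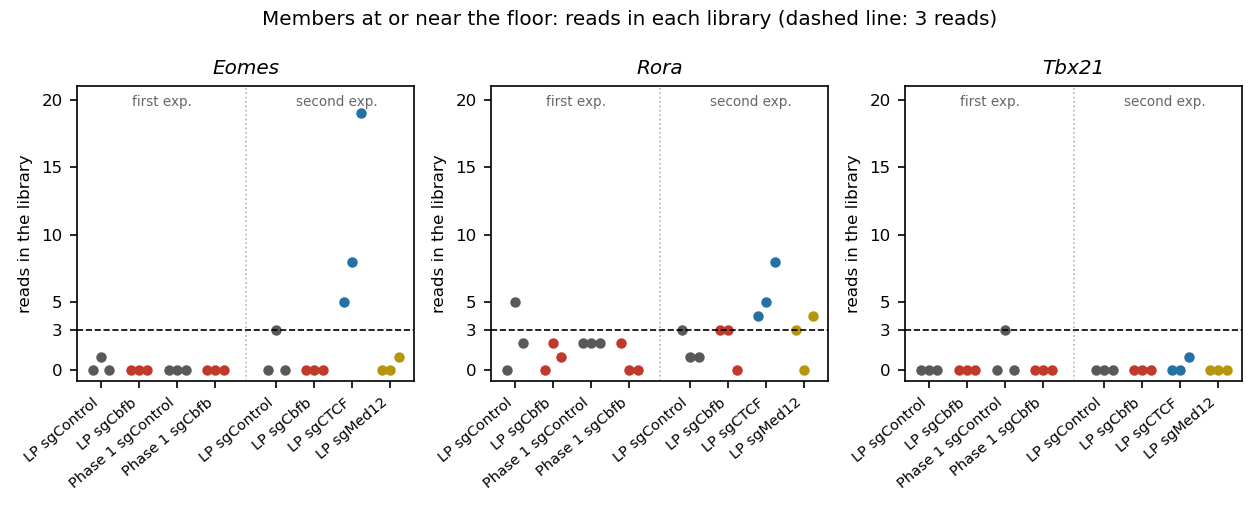
Reads (y axis) of *Eomes*, *Rora* and *Tbx21* in each library (points) of the 8 groups, with a dashed line at 3 reads. The sgCTCF libraries hold 5 to 19 *Eomes* reads, and all other libraries hold at most 3.

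*Il18r1*, *Icos*, *Eomes* and *Rora* were all above the sgControl libraries with sgCTCF, but *Icos*, *Eomes* and *Rora* passed the filter only through sgCTCF. This describes these genes alone, without the share of all genes that separate in this way. Markers of other cells were read in the same sgCTCF libraries. Of 6 markers of mature T or NK cells, the sum was 3.17 to 7.38 CPM with sgControl and 13.9 to 15.3 CPM with sgCTCF. *Prf1*, which encodes perforin, was the marker called (4.34 to 13.3 CPM), while *Cd3e* and *Cd8a* were at 0 in the sgCTCF libraries. Of 6 B-lineage markers, the sum was 10.0 to 11.7 CPM with sgControl and 19.9 to 27.8 CPM with sgCTCF, with *Pax5* called and *Cd79a* at 0. The part of other cells in the sgCTCF differences was not tested.

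Of 18 further ILC transcription factors, 13 were tested in experiment 1 and 14 in experiment 2, and *Tcf7*, *Gata3*, *Bcl11b* and *Zeb2* were among those called in more than 1 comparison. For this and the following lists, the share of all genes called was 3.39% for Phase 1 against LP with sgControl. It was 3.52% for sgCbfb in Phase 1 cells and 1.19% for the interaction. In LPs it was 1.69% and 4.33% for sgCbfb in experiments 1 and 2, 2.43% for sgCTCF and 1.03% for sgMed12. With Notch stimulation in sgControl cells 3 rose and 0 fell, namely *Tcf7* (4.52 to 148 CPM, 32.6-fold), *Gata3* (33.2 to 141 CPM, 4.26-fold) and *Bcl11b* (76.3 to 438 CPM, 5.74-fold), the comparison in which *Zbtb16* rose. With sgCbfb in Phase 1 cells the same 3 fell (*Tcf7* to 12.7 CPM, *Gata3* to 43.2 CPM and *Bcl11b* to 37.5 CPM) and *Zeb2*, which encodes a repressor active in NK cell maturation, rose (33.2 to 83.9 CPM). sgCbfb lowered *Ahr* and *Bcl11b* in LPs of experiment 1 and *Bcl11b* in those of experiment 2 (55.1 to 2.95 CPM, 18.7-fold). sgCTCF raised *Tcf7* (2.54 to 18 CPM, 7.10-fold) and lowered *Zeb2* (47.7 to 22.5 CPM). sgMed12 gave 0 calls by limma and by edgeR, with 4 factors at an unadjusted limma P under 0.05. *Tcf7* and *Gata3* were also called in the interaction, in which *Zbtb16* was not. The list's median log2 difference was 0.88 for Phase 1 against LP with sgControl and −0.41 for sgCbfb in Phase 1 cells, against −0.07 and 0.06 over all genes tested.

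Of 13 cytokine receptors of ILCs, 11 were tested in experiment 1 and 12 in experiment 2. With Notch stimulation 5 rose and 0 fell, where 3.39% of all genes were called. The rises were led by *Il2ra*, the α chain of the IL-2 receptor (2.61 to 371 CPM), and included *Il17rb* and *Il12rb2*, whereas *Il18r1* did not pass the test in this comparison. With sgCbfb in Phase 1 cells 4 fell (*Il17rb*, *Il12rb2*, *Il2ra* and *Il2rb*), beside *Il18r1*, where 3.52% of all genes were called. *Il17rb* reached the filter only through sgControl Phase 1 cells, so both of its calls are conditioned on that group. With sgCbfb in LPs the directions were mixed, *Kit* and *Il2ra* higher and *Il2rb* lower in experiment 1 and *Il2ra* higher and *Il18rap* and *Il2rb* lower in experiment 2. sgCTCF gave 0 calls in this list by limma and by edgeR, with 7 receptors at an unadjusted limma P under 0.05, and sgMed12 gave *Il2rb*, lower. Of 18 surface molecules of ILCs, with 11 and 10 tested, sgCbfb lowered *Ccr9* in all 3 comparisons (989 to 235 CPM, 131 to 58.0 CPM and 534 to 26.9 CPM) and *Thy1* in Phase 1 cells and in LPs of experiment 2. With Notch stimulation *Itgb7* and *Itga4* rose and *Ccr9* fell, and sgCTCF raised *Klrd1* (4.12 to 13.7 CPM). The *Cxcr5* mean was called higher with sgMed12 (7.44 ± 1.59 to 20.8 ± 12.1 CPM, SD, n = 3). Its groups overlapped, with the lowest sgMed12 library at 8.43 CPM and the highest sgControl library at 8.52 CPM.

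Among 19 effector molecules of ILCs, 6 were tested in each experiment. *Gzma*, which encodes a granzyme, rose with Notch stimulation (5.85 to 2769 CPM) and fell with sgCbfb in Phase 1 cells, sgCbfb raised *Tnf* and *Lta* in LPs of experiment 2, and sgCTCF raised *Ltb*, *Lta* and *Prf1*. Of 15 clock genes, the circadian setting in which *Rora* and *Nfil3* are also known, 11 were tested in each experiment. In experiment 1, limma and edgeR called 0 in each comparison, with 0 to 2 at an unadjusted limma P under 0.05, and the calls against sgControl in experiment 2 were *Per2*, lower with sgCbfb, and *Clock*, higher with sgMed12. Of 5 other T-box genes, *Tbr1* was tested in experiment 1 and *Tbx6* in experiment 2, and neither was called in any comparison of its experiment.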

How the data were processed

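QuantSeq 3′ mRNA reads were trimmed with fastp, aligned with STAR to mm10 and counted per gene by the authors, and versions and the strand setting were not given in the sources used here. The deposited values are named TPM but are counts per 1000000 reads (CPM): each was a whole multiple of 1 read of its library (100% of values, tolerance 0.1), so the reads were recovered. In each table the row without a gene ID and the columns of the authors' means were not used. The experiments are separate tables and were fitted separately with limma 3.58.1 (R 4.3.3) on log2(CPM + 1), 4 groups per fit, with Benjamini-Hochberg adjustment over all genes tested. Fold changes are ratios of mean CPM, and limma differences on this scale understate the change of low genes. edgeR 4.0.16, other pseudocounts, filters, scalings and libraries left out served as alternatives. The fit was also run on simulated data with changes only in well-read genes, so that run does not cover members near the floor. Intervals for ratios of reads are exact 95% binomial intervals and cover counting error only. Positions come from GENCODE M21, promoters from RefSeq. All 7 members are named, and list genes where called, by size. Genes most like a member needed a group mean of at least 10 CPM in both experiments, which *Il18r1* and *Nfil3* had. Members and gene lists were chosen with earlier results of these data known. P values set a group difference against the spread between libraries. The labels do not say whether the libraries of a group are separate lines or cultures of 1 line.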

Additional observations from a re-analysis of the deposited data

How the results depend on the processing

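Across the 11 comparisons, 207 of 230 alternative counts of called members stayed within 1.5 times the reported count. Of 1258 decisions by gene, called or not called, 1233 stayed the same, 12 calls were lost and 13 gained, and 0 calls were reversed. Differences that were not called did change sign in some alternatives. For *Nfil3* with sgCTCF against sgControl this happened in 4 of 21. With the mean threshold at 5 CPM, the number of called members was 2 for sgCbfb in LPs of experiment 1, 2 for sgCbfb and 1 for sgCTCF against sgControl in experiment 2, 2 for sgCTCF against sgCbfb, 4 for sgMed12 against sgCTCF and 2 for sgMed12 against sgCbfb. In each comparison that involved sgCTCF, *Icos* was among the members gained. It passed the filter only through sgCTCF, so these added calls are conditioned on that group. With a pseudocount of 0.1, Phase 1 against LP with sgControl gave 0, and with a pseudocount of 5 the interaction gave 1 (*Zbtb16*). Without the filter on low values, Phase 1 against LP with sgControl gave 0 and sgMed12 against sgControl gave 0. With only the 2 groups compared in the fit, sgMed12 against sgControl gave 0. Leaving the 37 mitochondrial genes out of the totals, an alternative chosen after seeing the data, gave 2 for sgMed12 against sgCbfb and 3 for sgMed12 against sgCTCF, where *Zbtb16* joined the called members in both (adjusted P = 0.000851 and 0.0310). Leaving out each library in turn gave 0 to 1 for Phase 1 against LP with sgControl, 1 to 2 for sgCbfb, 0 to 1 for sgCTCF and 0 to 1 for sgMed12 against sgControl in experiment 2, 1 to 2 for sgCTCF against sgCbfb and 1 to 2 for sgMed12 against sgCTCF. The cause of these shifts was not tested. *Zbtb16*, *Nfil3* and *Icos* stood near the thresholds, and for *Eomes*, *Rora* and *Tbx21* depth limits what can be shown.

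The labels give the groups the same replicate numbers but do not say that a number marks a shared culture or day. Deviations of libraries with the same number from their group means correlated at −0.04 to 0.14 (median 0.04) in experiment 1 and −0.13 to 0.22 (median 0.07) in experiment 2. With different numbers the medians were lower, at −0.02 and −0.03. Of the 3 libraries of another group, a library correlated best with its own number in 18 of 36 and 22 of 36 cases. As the labels give no pairing, the main fit took no pairs. Whether a number marks a shared culture or day was not tested. With a replicate block, the counts of called members were 1, 2, 1, 0 and 0 in the 5 comparisons of experiment 1 and 1, 0, 1, 1, 2 and 1 in the 6 of experiment 2, as without the block.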
